A study of Mus musculus with 63 samples.

Results

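The genes described here encode the proteins of the cytosolic ribosome. A gene entered when its single symbol began with Rpl or Rps followed by a digit, or was Rpsa, Rplp0, Rplp1 or Rplp2, leaving out Rps6k genes and pseudogene symbols, and it was represented by its probe set with the highest mean. This gave 63 of 19938 genes. Of these, 54 encode core ribosomal proteins, 33 of the large and 21 of the small subunit, out of 77 listed core proteins. The other 23 core proteins, Rpl3, Rpl11, Rpl15, Rpl39 and Rps27 among them, had no probe set annotated to their symbol alone. The remaining 9 members carry a matching symbol without being core proteins. They are the paralogs Rpl3l, Rpl7l1, Rpl10l, Rpl39l, Rps4l and Rps27l, the gene Rps19bp1 for a protein that binds Rps19, and Rpl32l and Rps23rg1. No filter on low values was used, so all 63 entered each test.

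The ribosome joins a small subunit, which reads the mRNA, to a large subunit, which forms the peptide bond. Their proteins are needed in nearly equal amounts, and their mRNAs typically begin with a C and a run of pyrimidines, the TOP motif, through which mTORC1 signalling controls their translation. Myc, a transcription factor that binds the E-box CACGTG, is known for driving ribosome production in growing cells, and mice heterozygous for Rpl24 have been used to lower protein synthesis in Eµ-myc lymphoma. When ribosome assembly is disturbed, Rpl5 and Rpl11 bind Mdm2 together with an rRNA.

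The samples were primary lymphoma cells from lymph nodes of C57BL/6 mice whose genotype is given as Emu-myc transgenic, a Myc transgene under the immunoglobulin heavy-chain enhancer, which acts in B cells. The cells were neither purified nor cultured. There were 32 arrays labelled native and 31 labelled CTX 4h, taken 4 h after intraperitoneal cyclophosphamide, an alkylating drug, with a dose of 300 mg/kg stated for 29 of the 31. The treatment protocol describes recipients transplanted with primary lymphomas and treated once lymphoma was palpable, and the series text calls recipients immunocompetent and speaks of therapy-naive samples alone, so the treatment of an array rests on its own label. The labels leave unsettled which host the native samples had, transgenic mice or recipients, and whether each array is a separate mouse. A p-value here therefore measures only how these samples vary, which may be technical.

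Labelling began from 100 ng RNA for 15 native and 29 treated arrays and from 300 ng for 17 native and 2 treated arrays. The 100 ng arrays were divided by the leading digit of each lymphoma number, which with the 300 ng arrays made 4 sets. They were 100 ng start 1 (7 native, 6 treated), 100 ng start 8 (3 and 9), 100 ng start 9 (5 and 14) and 300 ng (17 and 2). The 300 ng set pools start 8 (11 native, 1 treated) and start 9 (6 native, 1 treated). Its 2 treated arrays are those without a stated dose. All levels are deposited log2 values, and 1 unit is a doubling. Of 8 listed B-cell markers, 7 were measured, and their mean level was 9.96 to 12.08 in native and 9.95 to 12.07 in treated arrays. In bulk samples, fewer cells of a type and less RNA per cell cannot be told apart.

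A pair of native arrays stood apart. Native replicate 8, of the 100 ng start 9 set, and native replicate 19, of the 300 ng set, had the lowest mean correlations with the other arrays (0.906 and 0.915, against at least 0.941). Their Myc levels were 11.39 and 10.64, while the other 30 native arrays lay between 12.87 and 13.75 and the treated arrays between 12.36 and 13.78. All 5 measured mitotic genes (Mki67, Top2a, Cdk1, Aurka, Plk1) were lower in both than in every other native array, with mean levels of at least 10.62 in the others and of 8.92 and 8.89 on these. On native replicate 19, 4 of 9 macrophage, 2 of 8 stromal or endothelial and 3 of 5 adipocyte markers lay above all other native arrays. On native replicate 8, 3 of 9 macrophage markers, the endothelial gene Pecam1 and the B-cell gene Blnk lay below them. Of 4 salivary markers 1 lay above all other native arrays on each, Smgc on native replicate 8 (6.36 against at most 5.19) and Pip on native replicate 19 (13.98 against at most 13.70). The part of these markers in the results was not tested, and the main results on native arrays are given with and without them.

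Promoters of 51 members were found in the RefSeq table of assembly GRCm38.p6, which gives 250 bases before and 50 after each annotated start. The E-box is shown first because it is the site Myc binds. CACGTG, which reads the same on both strands, occurred for 5 of the 51 members (9.8%), against 9.5% of 15614 measured genes with a promoter, 21.6% of ribosome biogenesis genes (8 of 37) and 7.35% of mitochondrial ribosomal protein genes (5 of 68). The 5 sites follow on the gene's own strand, with the E-box in capitals. They lay at chr9:120571337-120571366 (plus strand) for Rpl14, chr11:98026679-98026708 (plus) for Rpl19, chr11:97782425-97782454 (minus) for Rpl23, chr3:130730536-130730565 (minus) for Rpl34 and chr7:24884781-24884810 (plus) for Rps19.
Rpl14: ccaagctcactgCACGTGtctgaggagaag
Rpl19: tacccagaggacCACGTGaccaaacgccct
Rpl23: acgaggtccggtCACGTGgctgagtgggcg
Rpl34: cacctaacttctCACGTGacgttcctaccg
Rps19: tggagccgcggcCACGTGcgagcggcaggc

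The start itself is shown because it carries the family's hallmark. A C followed by at least 4 pyrimidines exactly at an annotated start occurred for 10 of the 51 members (19.6%) and for 2.75% of the measured genes (430). None of the 37 biogenesis and 68 mitochondrial ribosomal genes had one. The search asks for the motif at the annotated base only, so a start annotated a few bases away is not counted. The 6 examples below hold 15 bases before and 15 after the start, with the pyrimidine run in capitals. They lay at chr4:86857353-86857382 (minus) for Rps6, chr7:4792950-4792979 (plus) for Rpl28, chr11:114668565-114668594 (plus) for Rpl38, chr17:27635230-27635259 (minus) for Rps10, chr17:33955651-33955680 (minus) for Rps18 and chr9:120571502-120571531 (plus) for Rpl14, the only member with both motifs.
Rps6: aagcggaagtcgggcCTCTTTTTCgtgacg
Rpl28: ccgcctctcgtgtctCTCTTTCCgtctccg
Rpl38: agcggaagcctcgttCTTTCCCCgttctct
Rps10: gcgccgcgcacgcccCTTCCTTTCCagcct
Rps18: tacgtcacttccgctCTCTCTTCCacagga
Rpl14: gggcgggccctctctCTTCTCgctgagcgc

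Ribosomal protein genes were among the brightest genes on the arrays. The median level of the 54 core genes was 12.85, against 7.12 for all genes, with 12.90 for the large and 12.82 for the small subunit. Of the 63 members, 41 exceeded 12, all of them core genes, as did 1.24% of all genes. A probe set's brightness depends on its probes as well as on the mRNA, so the order of members by level is a description of probe sets. For 39 of the 63 members the rule took the highest of several probe sets, which raises their levels. Among all genes this choice was rarer, with 21789 probe sets for 19938 genes. The 5 brightest were Rplp1 (14.03) and Rplp0 (13.95), both of the ribosomal stalk, Rps6 (13.79), the target of the Rps6k kinases, Rpl10 (13.78) and Rps15 (13.77). In that order, Rplp1 ranged from 13.67 to 14.24 over native arrays and Rplp0 from 13.44 to 14.20, so neighbours overlapped.

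The dimmest members were not core proteins. Rpl39l had a mean level of 4.49, Rpl3l, known as a muscle form of Rpl3, 5.59, Rpl10l, known from the testis, 6.13, Rps23rg1 6.82 and Rps4l 7.101. The core genes lay between 7.37 (Rplp2) and 14.03, and their dimmest probe sets were those of Rplp2, Rps15a, Rpl12 and Rpl22.

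**Figure D1:**
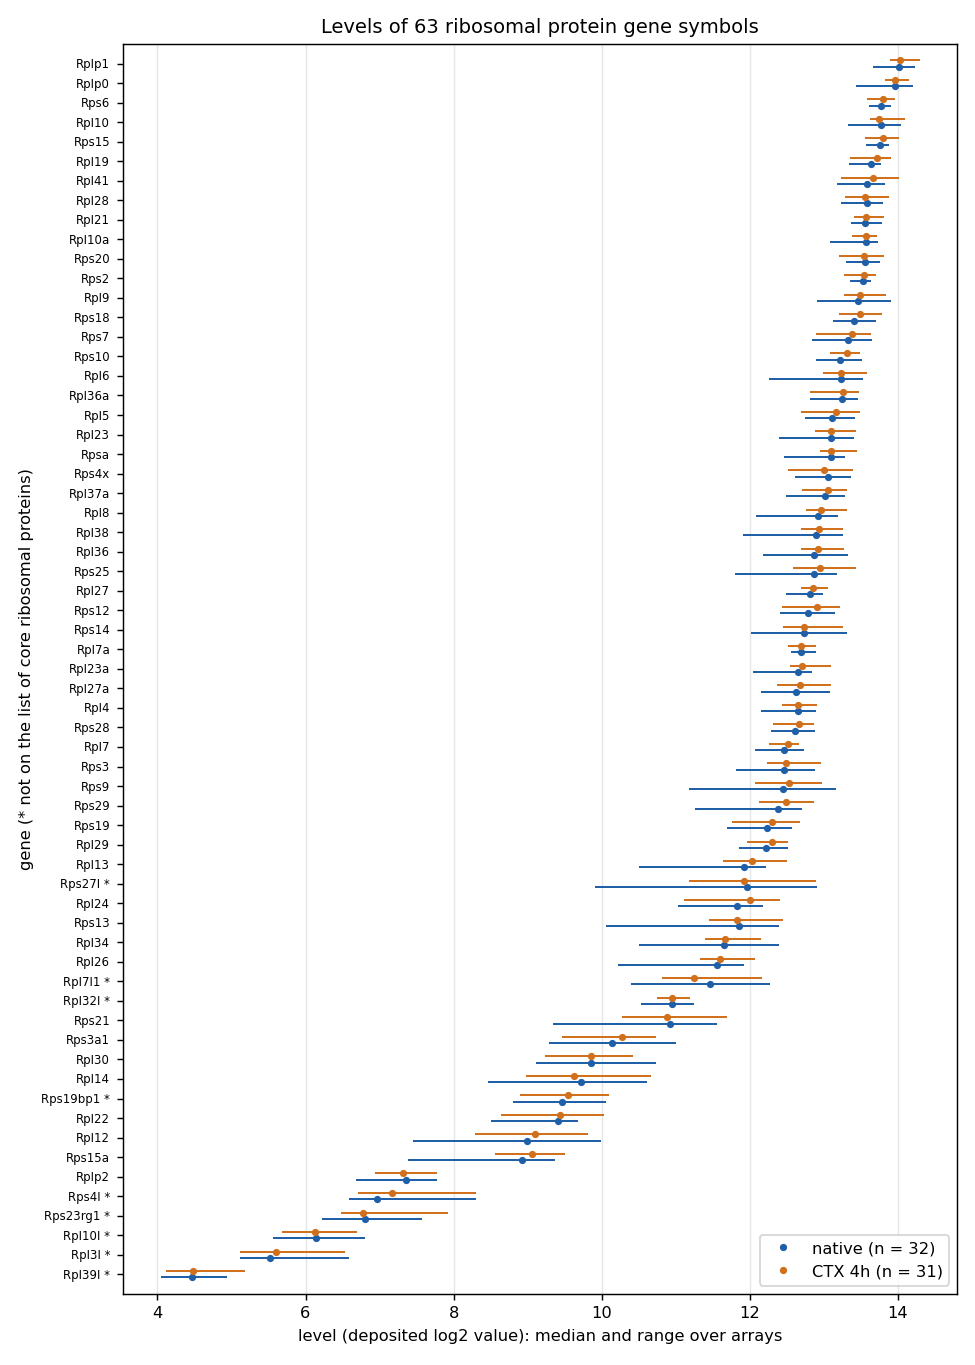
Level of each of the 63 genes (deposited log2 value, horizontal axis) as the median (point) and the lowest-to-highest range (line) over 32 native and 31 CTX 4h arrays, with asterisks on the 9 genes that are not core proteins. Most core genes lie above 12 with short lines, the long native lines of Rpl12, Rps13, Rps27l and Rpl14 reach down to native replicates 8 and 19, and Rpl39l is dimmest at 4.49.

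The probe sets of core genes had small SDs between lymphomas. After set means were removed, the median SD over native arrays was 0.182 for the 63 members, against 0.283 for all genes, 0.478 for 44 ribosome biogenesis genes and 0.424 for 77 mitochondrial ribosomal protein genes. Without native replicates 8 and 19 the medians were 0.135, 0.224, 0.283 and 0.273, and in treated arrays 0.141, 0.268, 0.318 and 0.307. For the 41 core genes above 12 the 3 medians were 0.142, 0.114 and 0.112, against 0.321, 0.206 and 0.239 for 205 other genes above 12. Signals of very bright probe sets can be compressed, and the part of this in the small SDs was not tested. The smallest SDs over native arrays were those of Rpl7a (0.0569), Rps2 (0.0629) and Rps6 (0.0659). The 6 largest, all in probe sets below the median level of the core genes, were those of Rpl12 (0.575), Rps27l (0.558), Rpl14 (0.430), Rps13 (0.411), Rps21 (0.379) and Rps9 (0.352). Those 6 fell to between 0.189 (Rps13) and 0.405 (Rpl12) without the pair of arrays.

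The pair of arrays with low Myc carried much of this spread. Measured from each gene's own median, the median deviation of the 63 members was -0.437 on native replicate 8 and -0.31 on native replicate 19. On the other 61 arrays it lay between -0.130 and 0.175. On the pair, 54 and 56 of the 63 members were below their own medians. Both arrays lay below all other native arrays for 24 of 54 core genes, against 42 of 44 biogenesis genes, 69 of 77 mitochondrial ribosomal protein genes and 3565 of 19937 genes.

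Individual genes differed widely in how far they dropped there. Rpl12, which lies near the stalk, was at 7.48 and 7.46 on the pair and at 8.51 to 9.99 on the other native arrays. Rps13 was at 10.06 and 10.73, against 11.48 to 12.40. The paralog Rps27l was at 9.91 and 10.06, against 11.48 to 12.91. For these genes the pair did not overlap the rest.

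Rpl14 also stood clear, at 8.46 and 8.68 against 9.35 to 10.61. Rplp0 moved less, at 13.44 and 13.49 against 13.76 to 14.20. Rps6 was at 13.61, just below the other arrays, and at 13.81, within their range of 13.64 to 13.91. Rpl5 lay within the range on both, at 12.75 and 12.84 against 12.74 to 13.41.

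Members moved together across lymphomas, though less tightly than the genes that build ribosomes. Over 32 native arrays with set means removed, the median Pearson correlation over the 1953 pairs of members was 0.446 (quartiles 0.133 and 0.662), and 369 pairs were negative. It was 0.525 among core genes, 0.865 among biogenesis genes, 0.763 among mitochondrial ribosomal protein genes and 0.0255 among all genes. Without native replicates 8 and 19 these values were 0.271 for members, 0.335, 0.638, 0.518 and 0.033. In 31 treated arrays they were 0.236, 0.291, 0.577, 0.532 and -0.005. The genes share arrays and normalization, so these are descriptions without a test. They also moved with scaling, as the members' native value was 0.671 with each array set to a common median and 0.247 after quantile normalization. The other lists were not rescaled for this. Members had smaller SDs than biogenesis genes (medians 0.182 and 0.478 over native arrays), and the part of this in their lower correlations was not tested.

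The members most in step with the median of the other 62 over native arrays were Rps9 (r = 0.933), Rps3 (0.927), Rpl36 (0.926) and Rps13 (0.920). The least in step were Rpl39l (-0.482), Rps23rg1 (-0.477), Rpl3l (-0.417) and Rpl10l (-0.190), all of them dim and none a core gene. Without the pair of arrays the first 4 named had 0.840, 0.873, 0.833 and 0.747. The last 4 then had -0.023, -0.355, -0.039 and -0.105, and in treated arrays 0.403, 0.190, -0.043 and 0.143, so that the negative value of Rpl39l was not seen there. The median over members was 0.735, with 47 of 63 above 0.5. Without the pair of arrays it was 0.529 with 35 above 0.5, and in treated arrays 0.506 with 32. Among core genes Rpl41, which encodes a very short peptide, was at -0.050, Rpl29 at -0.004, Rplp1 at 0.011 and Rpl21 at 0.039. Without native replicates 8 and 19 these 4 were at 0.434, 0.181, 0.446 and 0.135, and in treated arrays at 0.414, 0.471, 0.295 and 0.173. Each value comes from 1 probe set. Over native arrays the other probe sets of Rpl21 correlated with the one used at 0.329 to 0.770. The other of Rplp1 did so at 0.481 and those of Rpl41 at 1.

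**Figure D2:**
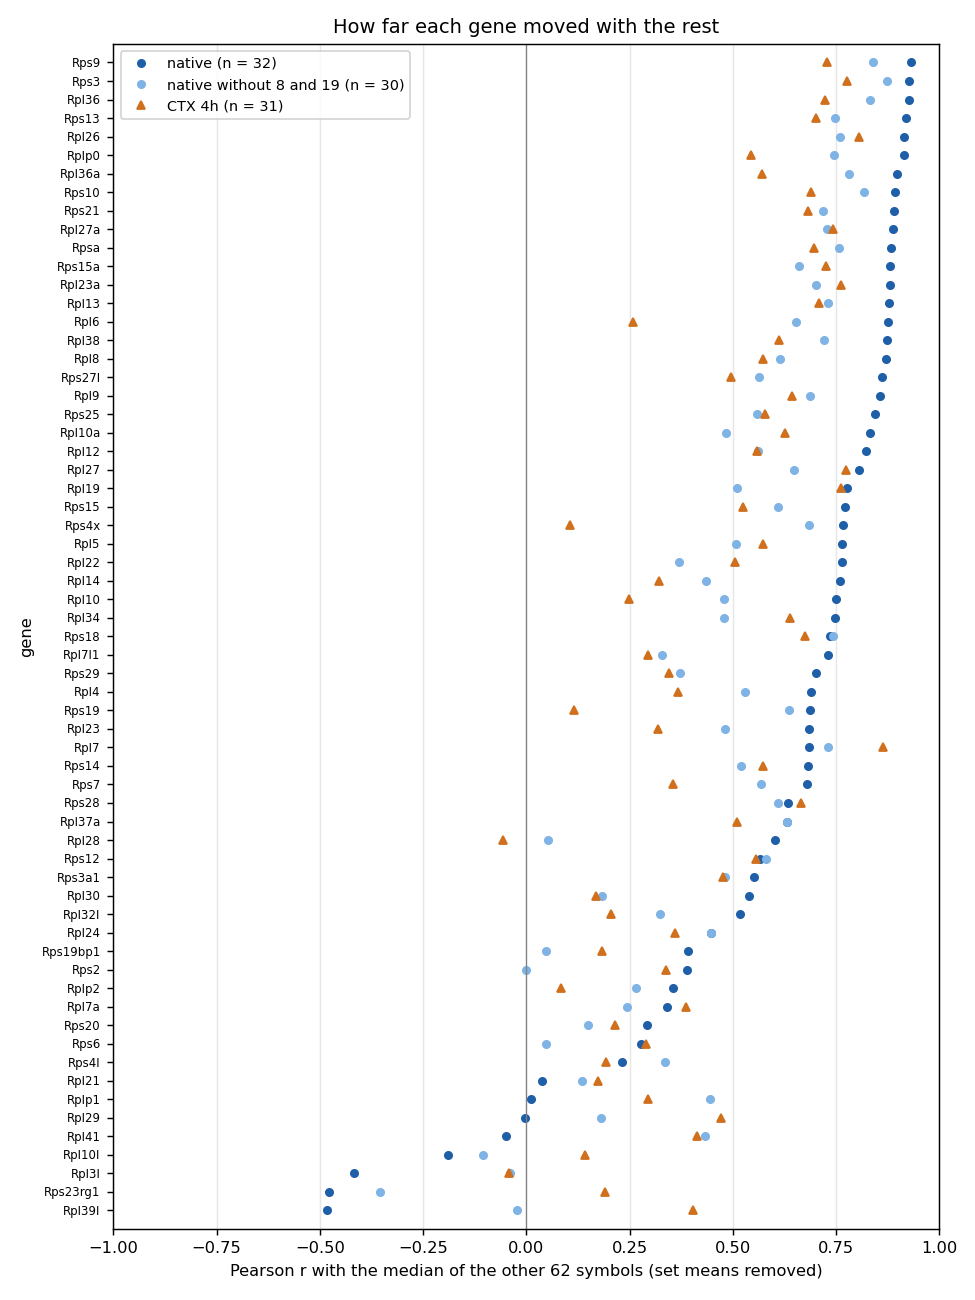
Pearson correlation of each gene with the median of the other 62 genes (horizontal axis, set means removed) over 32 native arrays, the same without native replicates 8 and 19 (30 arrays), and 31 CTX 4h arrays. Dark points run from -0.482 (Rpl39l) to 0.933 (Rps9), and most pale points and triangles lie to their left, with medians of 0.529 and 0.506 against 0.735.

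Outside the family, the gene with the level most like the members' median over 32 native arrays was Eef1b2, a subunit of the elongation factor that delivers tRNA (r = 0.942, 0.821 without the pair of arrays, 0.773 in treated arrays). Next came Timm13 (0.924), of the mitochondrial import machinery, and Uqcr11 (0.918), of the respiratory chain, then Igbp1 (0.905), Ssr4 (0.903), Timm8b (0.891), the small nucleolar RNA Snora69 (0.889), Prdx3 (0.886), Snord49a (0.885) and Spcs3 (0.884). Without the pair of arrays these 9 ranged from 0.645 (Spcs3) to 0.792 (Timm13). The median over all other genes was -0.124. These 10 are the highest of the ranking, and their values in treated arrays, from 0.319 for Spcs3 to 0.773 for Eef1b2, come from arrays the ranking did not use.

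The relation to Myc was measured as the slope of each gene's log2 level on the log2 level of Myc, with a term for the set of arrays, in limma with Benjamini-Hochberg adjustment over 19937 genes and a threshold of 0.05. Over 32 native arrays 43 of 63 members had a positive slope past the threshold, as had 27.5% of all genes, and 3 a negative one, as had 35.5%. The 43 included 39 of 54 core genes, 25 of 33 of the large and 14 of 21 of the small subunit. The median slope was 0.14, against -0.07 for all genes, 0.68 for biogenesis genes (44 of 44 positive) and 0.54 for mitochondrial ribosomal protein genes (75 of 77). Among 205 other genes above 12, 149 had a positive call (72.7%, against 68.3% of members), with a median slope of 0.35. Beside genes as bright, the members' share was thus no higher. The 4 steepest members were Rps27l (0.78 ± 0.09 SE, adjusted p = 1.73e-08), Rpl12 (0.69 ± 0.12, 1.33e-05), Rps13 (0.55 ± 0.07, 1.89e-07) and Rpl14 (0.54 ± 0.08, 3.01e-06). Without native replicates 8 and 19 these 4 slopes were 0.32 (adjusted p = 0.399), 0.45 (0.406), 0.29 (0.262) and 0.63 (0.104).

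At the other end were Rpl3l (-0.20, adjusted p = 0.0475), Rps23rg1 (-0.19, 0.0135), Rpl39l (-0.15, 0.00615) and Rpl41 (-0.06, 0.1003). The call of Rpl3l was lost without any of 19 native arrays (replicates 2, 3, 7, 8, 9, 12, 14 to 18, 21, 24, 25, 26 and 29 to 32), that of Rps23rg1 without replicate 19 and that of Rpl39l without replicate 8 or 19. Rpl5 and Rpl23, both partners of Mdm2, had slopes of 0.14 (adjusted p = 0.00778) and 0.11 (0.0212). Rpl22, which is lost in some lymphoid tumours, had 0.23 (0.00104), Rpl36a 0.15 (0.00215), and Rps6 0.02 (0.516). The calls of Rpl5, Rpl23 and Rpl22 were lost without native replicate 8.

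The calls among these native slopes rested on native replicates 8 and 19. Without native replicate 8 alone, 24 members had a positive call and 1 a negative one, against 21.4% of all genes in each direction. Without both arrays none of the 63 passed in either direction, against 7.82% of all genes positive and 4.09% negative, and 2 had a positive and 0 a negative slope at an unadjusted p under 0.05. The median slope was then 0.04, with 38 of 63 above 0. The 30 arrays left held a narrower range of Myc, and the intervals were wider. The median half-width of the members' 95% intervals was 0.287, against 0.097 over all native arrays. A slope of 0.14, the median over all native arrays, could therefore not be resolved for a typical member. Over the same 30 arrays 37 of 44 biogenesis genes passed with a median slope of 0.82, and 25 of 77 mitochondrial ribosomal protein genes with 0.55. Among 205 other genes as bright, above 12, 59 passed (28.8%) with a median slope of 0.35.

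The intervals show how far the members lay from the biogenesis genes, a comparison chosen after the values were seen. Without the pair of arrays, the upper limit of the 95% interval of the slope lay below the biogenesis median of 0.82 for 60 of 63 members. The exceptions were Rps27l, Rpl12 and Rpl14. The limit also lay below 0.82 for 126 of 205 other genes above 12 and 22 of 77 mitochondrial ribosomal protein genes. The count over all genes is not given here. Among members Rpl14 had the steepest slope (0.63 ± 0.26 SE, interval 0.10 to 1.16, adjusted p = 0.104), and Rpl7l1 had 0.36 (0.127).

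The slopes were measured again in the treated arrays, which the native fit did not use. None of 63 members had a positive slope past the threshold, against 6.7% of all genes, and 1 had a negative one, against 1.49%. At an unadjusted p under 0.05 there were 3 of each sign. The median half-width of the members' 95% intervals was 0.246. The negative call was Rps4l (-0.66 ± 0.21 SE, adjusted p = 0.0456), and it was lost without any of 17 treated arrays (replicates 1, 2, 4, 5, 6, 8, 11, 15 to 19, 21, 22, 23, 27 and 29). The median slope was -0.01, against 0.71 for biogenesis genes (31 of 44 past the threshold) and 0.61 for mitochondrial ribosomal protein genes (30 of 77). The upper limit lay below 0.71 for 58 of 63 members, the exceptions being Rpl12, Rpl14, Rpl30, Rps27l and Rps19bp1. The limit also lay below 0.71 for 120 of 205 other genes above 12 and 14 of 77 mitochondrial ribosomal protein genes. Among members Rpl14 was again steepest (0.55, interval 0.11 to 0.99, adjusted p = 0.0982).

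The term for the set mattered in treated arrays. Without it 7 members had a positive and 11 a negative slope past the threshold, against 22.5% and 14.8% of all genes, Rpl7l1 (0.60, adjusted p = 0.00345) and Rpl41 (-0.40, 0.00139) among them. Levels of Myc differed between the sets, with medians of 13.56 in start 1, 13.003 in start 8, 13.25 in start 9 and 12.60 at 300 ng. The slopes of native and treated arrays did not differ past the threshold for any member, with all arrays (0.0602% of all genes) or without the pair (0% of all genes).

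How arrays were scaled moved these slopes. With each array set to a common median and without the pair, 17 of 63 members passed with a positive slope (median 0.23), against 17.4% of all genes, and none with a negative one (0.707%), while the median of all genes moved from -0.10 to 0.09. They included Rpl14 (0.71, adjusted p = 0.0209), Rps2 (0.35, 0.00310), Rpl28 (0.34, 0.00433) and Rpl4 (0.43, 0.0152). After quantile normalization none of 63 passed (0.301% of all genes positive, 0.1% negative) and the median was -0.17, but 1 of 44 biogenesis genes passed too, with a median of 0.41. Under each of these scalings the biogenesis median stayed above the members' median.

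**Figure D3:**
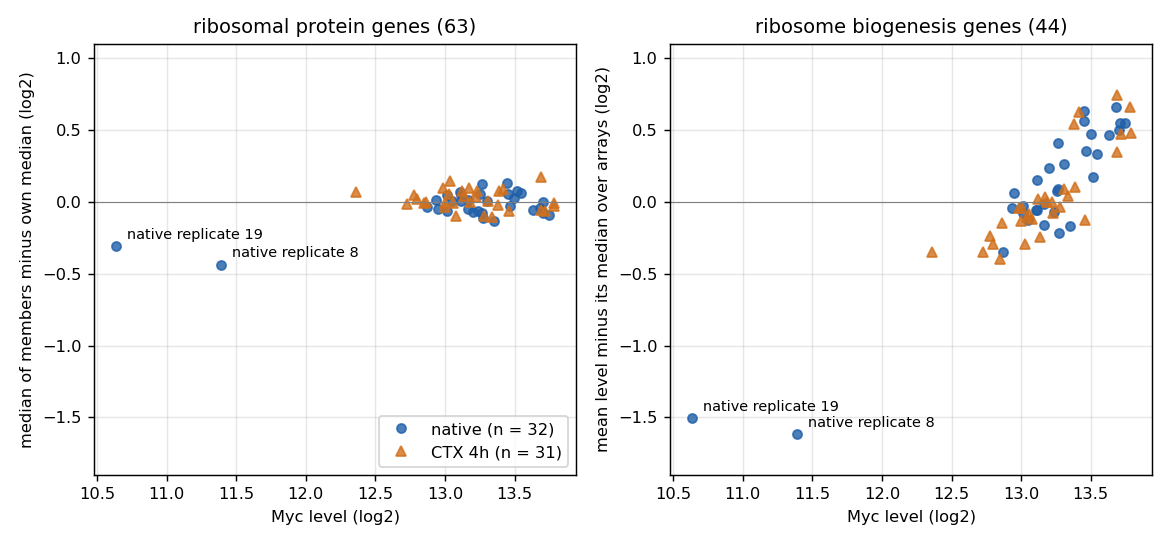
Each point is 1 array, with the Myc level (log2) on the horizontal axis. The vertical axis is the median of 63 ribosomal protein genes, each minus its own median (left), or the mean level of 44 biogenesis genes minus its median over arrays (right). Away from native replicates 8 and 19, the left points lie between -0.130 and 0.175 on the deposited scale while the right ones climb with Myc. All sets are drawn together, and both axes of the right panel differ between sets. In native arrays the median of Myc was 13.50 in start 1 and 13.05 in start 8, that of the biogenesis mean 11.02 and 10.44.

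**Figure D4:**
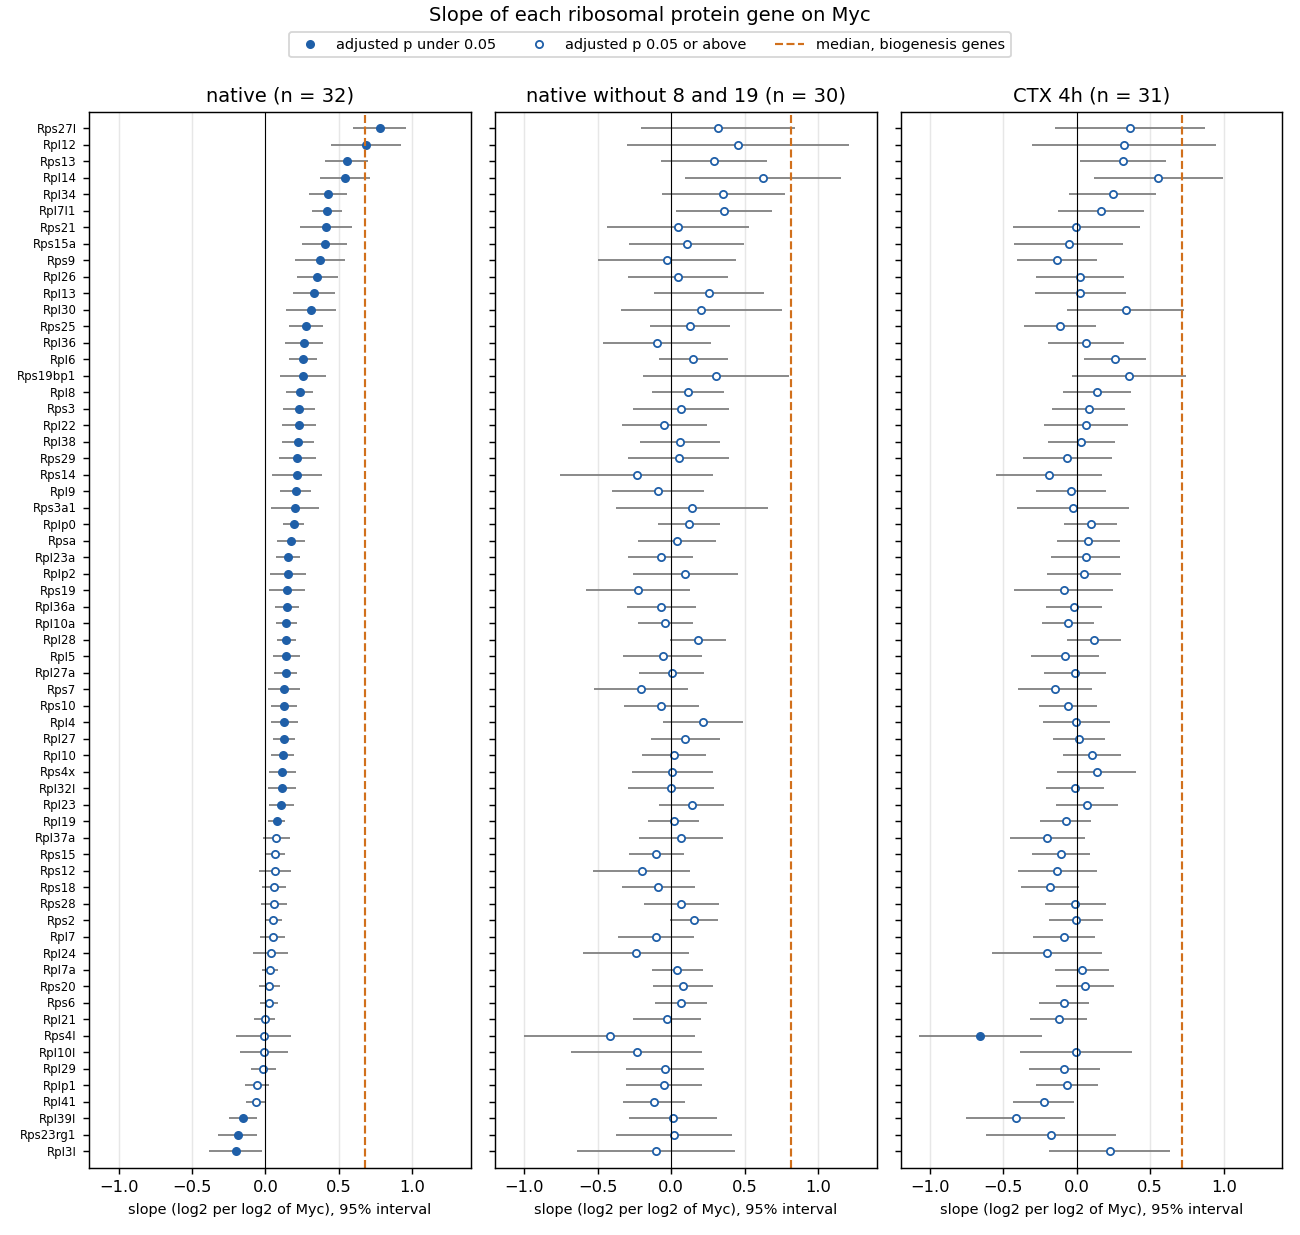
Slope of each gene on Myc (log2 per log2, points) with its 95% interval (lines) in 32 native arrays, in 30 without native replicates 8 and 19, and in 31 CTX 4h arrays, with filled points for an adjusted p under 0.05 and the dashed line at the median of the biogenesis genes. The 46 filled points of the first panel are all open in the second, and in the third only Rps4l is filled.

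Slopes were also set beside the motifs. The median slope was 0.148 for the 5 with CACGTG and 0.142 for the 46 without over all native arrays, 0.139 and 0.0446 without the pair, and 0.0702 and -0.0055 in treated arrays. Without the pair, Rpl14 had 0.63, Rpl34 0.36, Rpl23 0.14, Rpl19 0.02 and Rps19 -0.22. For a pyrimidine run at the start (10 genes with, 41 without) the medians were 0.148 and 0.142 over all native arrays, 0.0643 and 0.0408 without the pair, and -0.0082 and -0.0050 in treated arrays. The median difference of CTX 4h from native was 0.0295 with and 0.0625 without an E-box, and 0.0416 with and 0.0641 without the run. These are descriptions of few genes with no test.

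After cyclophosphamide ribosomal protein genes moved little. With RNA input as a term, 2 of 63 members were higher in the 31 treated than in the 32 native arrays, against 1.41% of all genes, and none was lower, against 1.26%. At an unadjusted p under 0.05, 16 were higher (7.62% of all genes) and 1 lower (9.85%). The median difference was 0.054 (log2), with 49 of 63 above 0, against -0.011 for all genes, 9178 of 19938 above 0. Without native replicate 8 the median was 0.029. All 21 core genes of the small subunit had a difference above 0 (median 0.077), as had 23 of 33 of the large subunit (median 0.043). Without native replicates 8 and 19, 18 of 21 (median 0.057) and 19 of 33 (0.006) did, against 10144 of 19938 genes. Within start 1, start 8, start 9 and the 300 ng set, 15, 15, 21 and 16 of the 21 were above 0. Without the pair it was 12 in start 9 and 15 at 300 ng. The shares of all genes within sets are not given here. Core genes correlated with each other, so their signs are not independent.

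Both genes that rose belong to the small subunit. Rps25, which takes part in internal initiation on some mRNAs, was at 11.80 lowest, 12.87 median and 13.17 highest in native and at 12.58, 12.94 and 13.44 in treated arrays. The groups overlapped over most of their range, and 21 of the 31 treated arrays exceeded the native median. The difference was 0.238 ± 0.066 (SE, adjusted p = 0.0347). Rps29, a zinc-binding protein, was at 11.26, 12.37 and 12.70 in native and at 12.13, 12.49 and 12.86 in treated arrays, 23 of 31 above the native median. Its difference was 0.231 ± 0.067 (adjusted p = 0.0433).

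The other probe sets of both genes gave differences of like size. Fitted one by one, all 4 probe sets of Rps29 passed, with differences of 0.231 to 0.311, and 3 of 6 of Rps25, whose 6 differences lay between 0.231 and 0.303. Of the 219 probe sets of members 7 passed, all higher, against 2.65% of 21789 in either direction. Ribosomal protein genes have many near-identical processed pseudogenes in the genome, so probe sets of 1 symbol can read the same transcripts and are not independent.

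Both calls depended on single arrays and on the terms of the fit. The call of Rps25 was lost without any of 9 arrays (native replicates 9 to 15, the native arrays of start 1, and both treated arrays at 300 ng, replicates 30 and 31). That of Rps29 was lost without any of 22 (native replicates 7, 9 and 11 to 15, and treated replicates 1, 2, 3, 6, 7, 9, 11, 12, 16, 19 to 23 and 30). With the set of arrays in place of RNA input the adjusted p was 0.187 for Rps25 and 0.149 for Rps29, and in the 100 ng arrays alone 0.220 and 0.162. Without RNA input as a term the differences were 0.144 (adjusted p = 0.297) and 0.133 (0.373).

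Without native replicates 8 and 19, Rps25 and Rps29 stayed past the threshold at 0.181 (adjusted p = 0.0302) and 0.171 (0.0390). Among all genes 4.2% were then higher and 8.31% lower. In this fit Rps4l (0.290, 0.0335) and Rpl41 (0.176, 0.0266) also passed as higher, and Rpl7l1 as lower (-0.345, 0.0197). With the set of arrays as the term and without the pair, none passed, and Rps25 and Rps29 had adjusted p = 0.274 and 0.233.

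The other large positive differences did not pass, though those of Rps4l, Rpl22 and Rpl24 exceeded those of Rps25 and Rps29. They were Rps4l (0.297, adjusted p = 0.0565), Rpl22 (0.268, 0.0973), Rpl24 (0.242, 0.106) and Rpl13 (0.186, 0.184). The largest negative ones were Rpl7l1 (-0.261, 0.214), Rpl3l (-0.103), Rplp2 (-0.087), Rpl30 (-0.072), Rpl10l (-0.061) and Rpl27a (-0.050). Rpl5 had 0.123 (0.245), Rpl23 -0.013 (0.932), Rpl36a 0.113 (0.246), Rps6 0.048 (0.369) and Rps27l 0.079 (0.800).

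Within sets of arrays no member passed the threshold. In 100 ng start 1 the median difference of the members was 0.011 (0.01% of all genes passed), in start 8 it was 0.018 (0.00502%), in start 9 0.103 (0%) and at 300 ng, with 2 treated arrays, 0.051 (1.04%). The start 9 set holds native replicate 8, and its median was 0.016 without that array. Rps25 differed by 0.077, 0.105, 0.268 and 0.2503 in the 4 sets in this order, and Rps29 by 0.103, 0.076, 0.437 and 0.058. Without native replicates 8 and 19 Rps25 differed by 0.032 in start 9 and 0.228 at 300 ng, and Rps29 by 0.238 and 0.042. The 4 differences did not differ past the threshold for any member (F-test, 0% of all genes). RNA input itself gave no call among members (0.16% of all genes), with 15 higher and 4 lower at 300 ng at an unadjusted p under 0.05.

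**Figure D5:**
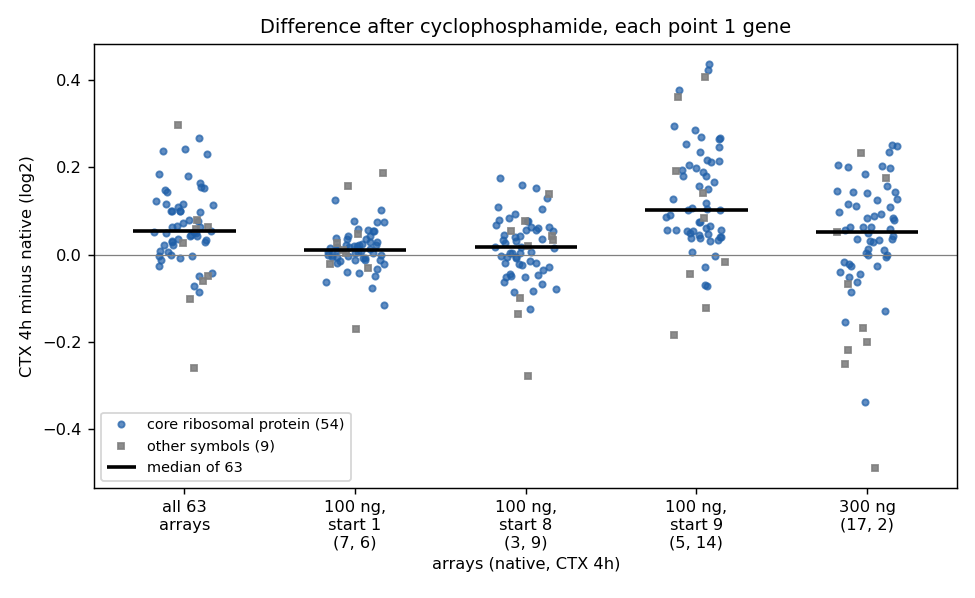
Difference CTX 4h minus native (log2, vertical axis) for each gene in the fit over all 63 arrays and in each set of arrays, with numbers of native and treated arrays in brackets and a bar at the median. The medians are 0.054 over all arrays and 0.011, 0.018, 0.103 and 0.051 in the sets, and points spread on both sides of 0 in every set.

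Markers of cells other than lymphoma cells differed between the groups. Of these, 4 of 8 stromal or endothelial, 2 of 5 adipocyte, 2 of 4 salivary and 1 of 9 macrophage genes (Cd14) were higher in treated arrays. Of all genes 1.41% were higher. Among mitotic genes, which are not markers of such cells, 2 of 5 (Plk1, Aurka) were lower, against 1.26% of all genes. No B-cell, T- or NK-cell, erythroid or neutrophil marker passed. The mean level of the stromal list was 8.36 to 9.34 in native and 8.24 to 9.94 in treated arrays, that of the macrophage list 7.92 to 8.91 and 7.55 to 9.81, that of the adipocyte list 6.89 to 10.12 and 6.997 to 11.07, and that of the salivary list 4.43 to 11.81 and 4.66 to 11.98. Values on a log2 scale have no 0, so no marker could be called absent. Their part in the differences of Rps25 and Rps29 was not tested.

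Few of the genes that make or regulate ribosomes were called after treatment, as were few of all genes (1.41% higher, 1.26% lower). Short lists without a call are near that share. None of 44 biogenesis genes passed (median -0.121), Polr1e, a subunit of RNA polymerase I, being nearest (-0.459, adjusted p = 0.0941). None of 77 mitochondrial ribosomal protein genes passed. Of 12 translation factors with TOP mRNAs 1 was lower, the elongation factor subunit Eef1d (-0.405, 0.0412). Of 16 mTORC1 and Rps6k pathway genes 2 were higher, and both restrain mTORC1. Ddit4 differed by 0.963 (adjusted p = 1.91e-04) and Sesn2 by 0.753 (0.00285).

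None of 6 genes around the Rpl5 complex with Mdm2 passed, Mdm2 itself at 0.258 (adjusted p = 0.160), nor any of 11 genes of the Myc network, with Myc at -0.094 (0.770). Of 3 measured host genes of small nucleolar RNAs whose spliced RNA has a TOP start, Snhg15 (0.872, 0.0130) and Gas5 (0.433, 0.0175) were higher and Snhg5 (0.297, 0.188) did not pass. Of 51 small nucleolar RNAs, which guide rRNA modification, 30 were higher (median 0.755), against 1.41% of all genes. At 300 against 100 ng RNA 8 of the 51 were also higher, where 0.16% of all genes passed in either direction. Their mean level differed between the sets of arrays, which are not a term of this fit. Its medians in native and treated arrays were 8.37 and 8.50 in start 1 and 9.63 and 10.11 in start 8. They were 9.68 and 10.12 in start 9 and 9.86 and 10.56 at 300 ng. The part of the sets in the 30 calls was not tested. Fau, a small-subunit protein whose symbol the rule leaves out, differed by 0.055 (0.443).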

How the data were processed

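The deposited values are log2 expression values per probe set, made with Partek 6.5 and RMA (background correction, normalization and probe summary) per the submitters' processing notes. The normalization settings and the grouping of arrays for it are not given in the sources used here. Array medians ranged from 6.53 to 7.11. Of 35557 probe sets, 21789 had 1 gene symbol, 1621 several and 12147 none, and 21698 matched RefSeq GRCm38.p6 by gene ID. Precision is limited by the number of arrays.

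Models were limma 3.58.1 in R 4.3.3 (lmFit, eBayes, two-sided, Benjamini-Hochberg over all genes), fitted on the whole table and tested on simulated data. The members and lists were chosen with earlier results of these data known. Genes were named by extremes of level, SD, difference, slope and correlation, and from a list of Mdm2 partners and paralogs. Alternatives were a common median, quantile normalization, other probe sets, other terms, a floor on dim genes, array weights, and arrays left out. Promoter motifs were matched by script (Python 3.11.15).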

Additional observations from a re-analysis of the deposited data

Results flagged for a closer look

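Levels of Myc, Rps25, Rps29, Rps27l, Rpl22, Rps4l, the biogenesis genes and the members' median were searched for an array far from the others of its group in each set of arrays with 4 to 10 arrays. Of 32 groups tested 8 had such an array, where the rule flags about 1 in 20 by chance in a single test. The same few groups of arrays were tested for every measure, and 1 array can stand out in several measures. The 32 are therefore not independent, and the 8 cannot be set against that rate. Native replicate 8 stood out among the 5 native arrays of 100 ng start 9 in 3 measures. Its Myc level was 11.39 (nearest other array 13.11), its mean biogenesis level 8.856 (10.3) and its Rps25 level 11.8 (12.9). CTX 4h replicate 29 was low among 6 treated arrays of 100 ng start 1, with a mean biogenesis level of 10.36 (10.95) and an Rps27l level of 11.52 (12.11). CTX 4h replicate 3 was high among 9 treated arrays of 100 ng start 8, with an Rps25 level of 13.44 (13.09) and an Rps27l level of 12.89 (12.08). Native replicate 13 was low for Rps27l among 7 native arrays of 100 ng start 1, at 11.84 (12.08).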

How the results depend on the processing

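The count of members higher after CTX 4h (2) was 0 with a common median, no RNA input term, the set of arrays or the number's first digit as a term, 100 ng arrays alone, 300 ng arrays alone, or the set term without native replicates 8 and 19 (added after seeing the data). It was 1 with trend and robust, 4 without native replicate 8 or without both low-Myc arrays (each with 1 lower), and 9 with array weights (2 lower). Without both low-Myc arrays 4.2% of all genes were higher and 8.31% lower. The shares of all genes with array weights and with trend and robust are not given here. Quantile normalization gave 2 other genes, Rps4l and Rpl13, and 1 lower, against 420 higher and 358 lower of 19938 genes. Leaving out 1 array at a time gave 0 to 4 higher, 0 to 1 lower and a median difference of 0.029 to 0.066. Members lower at 300 ng (0) numbered 1 after quantile normalization or without native replicate 8, and 0 to 1 over single arrays left out.

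Native slopes on Myc (43 positive, 3 negative) numbered 8 positive after quantile normalization, against 3718 of 19937 genes, a larger share than among the members. On ranks of Myc they numbered 18 and 0, and the share of all genes is not given here. They numbered 24 and 1 without native replicate 8, 0 and 0 without both low-Myc arrays, 17 and 0 then with a common median, and 0 and 0 then with quantiles, these last 2 added after seeing the data. Negative calls fell to 0 with a common median or among genes above the median level. Leaving out 1 array at a time gave 24 to 44 and 1 to 3. Treated slopes (0 positive, 1 negative) numbered 6 and 0 with a common median, against 3400 and 263 of 19937 genes. They numbered 7 and 11 without a set term (22.5% and 14.8% of all genes) and 6 and 11 with RNA input in its place. Negative ones numbered 0 with quantiles, the mean of probe sets, genes above the median level or the rep2 array left out. Leaving out 1 array at a time gave 0 to 0 and 0 to 1. The median native correlation (0.446) was 0.271 without the low-Myc arrays, 0.339 with set means kept, 0.671 with a common median, 0.247 with quantiles and 0.351 to 0.464 over single arrays left out. The treated one (0.236) was 0.382 with a common median and 0.196 to 0.275 over single arrays left out.

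Signs of native slopes turned as follows. With quantiles they were 0.0034 for Rpl3l, 0.018 for Rpl39l and -0.093 for Rpl22. Without the low-Myc arrays they were 0.020 for Rps23rg1, 0.013 for Rpl39l, -0.056 for Rpl5, -0.046 for Rpl22 and -0.066 for Rpl36a. A common median without them gave 0.057 for Rpl3l, 0.154 for Rps23rg1 and 0.225 for Rpl39l. Quantiles without them gave 0.131 for Rpl3l, 0.256 for Rps23rg1, 0.174 for Rpl39l, -0.232 for Rps13, -0.284 for Rps27l, -0.253 for Rpl5, -0.35 for Rpl22 and -0.272 for Rpl36a. The cause was not tested. Arrays that a group does not hold were not left out of its slope fit. No paired analysis was possible because the labels give no link between native and treated arrays. Dim members such as Rpl39l and Rpl3l lie near the bottom of the array's range, which limits what their values show.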
